A study of Drosophila melanogaster with 36 samples.

Results

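The 48 genes described here build the vacuolar proton pump (V-ATPase) or belong to the Rab family of vesicle traffic regulators. They were chosen by name: every gene whose symbol begins with Vha, or with Rab followed by a digit or X, and whose mean abundance over all libraries was at least 1 TPM (a length-normalized share of a library's transcripts). Of 8649 genes at that level, 20 were Vha and 28 were Rab genes. The Rab members were 25 GTPases and 3 regulators that share the name, Rab3-GEF, Rab3GAP1 and Rab3-GAP. Another 13 Vha and 8 Rab symbols lay under 1 TPM. Just inside the threshold were VhaM9.7-c at 5.92 TPM and Rab3-GAP at 5.54 TPM, and just outside it were Vha14-2 at 0.781 TPM and Rab9E at 0.633 TPM.

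The study profiled mRNA of LNv neurons, the PDF-producing ventral lateral clock neurons of the Drosophila brain, sorted by membrane GFP under the Pdf driver from female flies labelled wild type in the w1118 background. LC25 flies were kept on 0.5x sucrose-yeast food at 25 °C, HC18 flies on 1.5x food at 18 °C, and HC25 flies on 1.5x food at 25 °C; the foods and temperatures were matched to these codes from the design text. Each condition has 12 libraries, taken every 2 h from ZT02 to ZT24 (zeitgeber time, hours on the daily schedule), so that each of the 36 libraries stands alone for its condition and time. Age, light schedule and the number of brains per library are not stated in the labels. The Pdf driver marks both large and small LNv cells, which are therefore mixed in each library.

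The V-ATPase pumps protons into lysosomes, endosomes, synaptic vesicles and dense-core vesicles. Its cytosolic V1 sector splits ATP and its membrane V0 sector carries the protons. In neurons the acid interior drives the loading of transmitters into synaptic vesicles and the cutting of peptide precursors in dense-core vesicles, which in LNv neurons hold PDF. Rab proteins are small GTPases that mark membranes: each recruits its own motors and tethers to a step of traffic between the endoplasmic reticulum (ER), Golgi, plasma membrane, endosomes and lysosomes.

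TPM carry no read number, so the depth of each library is unknown. All 5 LNv markers were present, and Pdf alone made up 19.35 to 30.06% of the TPM of 35 libraries. The HC25 library of ZT06 stood apart: Pdf held 7.68% of it, and its median Spearman correlation with the other libraries was 0.837, the lowest of the 36. In it 8 glial markers summed to 703 TPM, of which Gs2 held 681 TPM, against 11.3 to 1211 TPM with a median of 27.5 TPM elsewhere, while repo was at 0.169 TPM and alrm at 0.908 TPM. The next lowest correlations were 0.893 for HC25 ZT08 and 0.894 for HC18 ZT24. HC25 ZT08 held the highest glial sum, 1211 TPM, with alrm at 183 TPM and repo at 9.92 TPM, and the highest sum of 7 fat body markers, 260 TPM. The fat body sum was 109 TPM in HC25 ZT06. It ranged from 7.20 to 108 TPM in LC25, 8.51 to 79.2 TPM in HC18 and 8.11 to 260 TPM in HC25; Lsp2 and fit were under 1 TPM on average, and of the 5 tested Yp1 and Yp3 were called lower in HC18 than in HC25. The 4 Kenyon cell markers of HC25 ZT06 summed to 47.8 TPM, against 104 to 205 TPM elsewhere. The 6 monoaminergic markers summed to 65.2 to 329 TPM in LC25, 30.9 to 306 TPM in HC18 and 62.9 to 274 TPM in HC25. Medians of this sum were 164 TPM in LC25, 148 TPM in HC18 and 133 TPM in HC25. Of these markers Tdc2 averaged 133 TPM, and the others lay between 1.67 and 14.9 TPM. The 5 haemocyte markers summed to at most 6.95 TPM in any library and the 7 muscle markers to at most 24.2 TPM. The 7 photoreceptor markers summed to 1031 TPM in LC25 ZT18, against a median of 47.4 TPM in LC25. Their sum reached at most 62.9 TPM in HC18 and 91.7 TPM in HC25, and inaD, ninaC and trp were under 1 TPM on average. By condition the glial sum ranged from 11.3 to 39.8 TPM in LC25, 13.2 to 99.9 TPM in HC18 and 21.7 to 1211 TPM in HC25, with repo, moody, Mdr65 and wun2 under 1 TPM on average. In 4 HC18 libraries (ZT06, ZT08, ZT10 and ZT22) fmt, a very abundant transcript elsewhere, lay between 121 and 1603 TPM. Mitochondrial transcripts held 13.9 ± 3.06% of LC25, 8.30 ± 3.03% of HC18 and 14.04 ± 2.56% of HC25 libraries (SD, n = 12 each). The part of these differences between libraries in the results was not tested, other than by leaving the libraries out or rescaling.

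The V-ATPase genes were abundant, and for subunits A, D and a, which have several gene copies, a single copy carried most of the transcript in 35 of the 36 libraries. For subunit D that copy was Vha36-1, with at least 81.9% in each library. Vha13, the G subunit of the stalk, had the highest mean of the family. It ranged from 699 to 1132 TPM with a median of 878 TPM in LC25, from 871 to 1433 TPM with a median of 964 TPM in HC18, and from 786 to 1643 TPM with a median of 993 TPM in HC25. VhaM9.7-a, an e subunit of V0, followed with medians of 914.5 TPM in LC25, 968 TPM in HC18 and 989 TPM in HC25. For both genes the ranges of the 3 conditions overlapped. Vha16-1, the proteolipid of the c ring that carries the protons, had a mean of 778 TPM over the 36 libraries, and VhaAC45, an accessory subunit homologous to mammalian ATP6AP1, had 512 TPM. Means of the other members above 100 TPM fell between 164 TPM for Vha100-1, the a subunit that forms the proton path with the ring, and 476 TPM for Vha14-1, the F subunit. The catalytic A subunit (Vha68-1, 196 TPM) and the regulatory subunit H (VhaSFD, 244 TPM) were below the E subunit (Vha26, 381 TPM) and the D subunit of the rotor (Vha36-1, 355 TPM). The 4 members of lowest mean were second copies of the A subunit (Vha68-2), the D subunit (Vha36-3) and the a subunit (Vha100-2), and the least abundant e subunit (VhaM9.7-c).

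**Figure D1:**
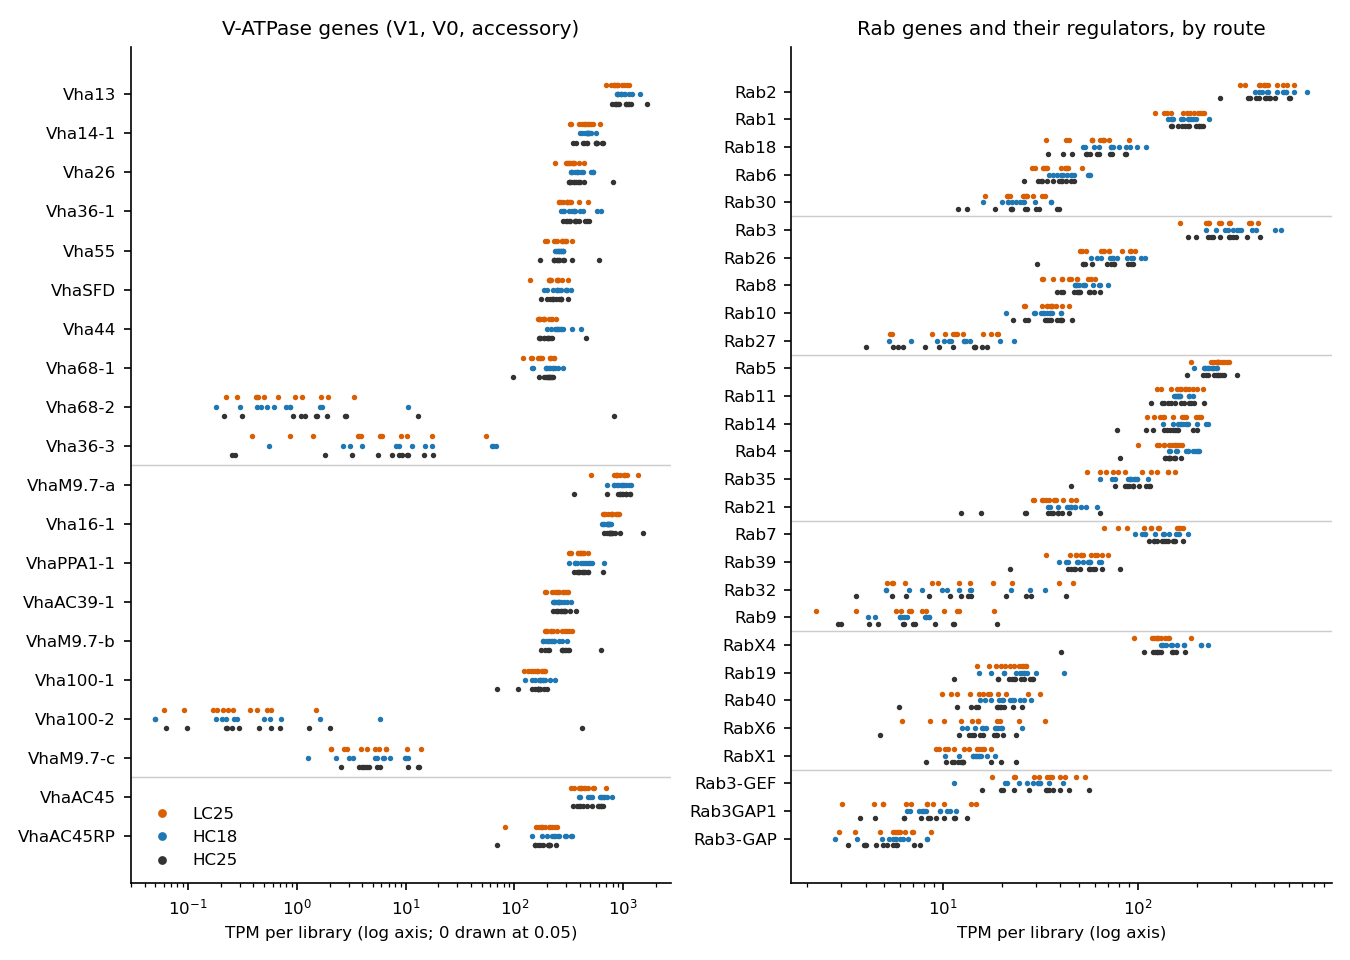
TPM of every member in every library, on log axes that differ between the panels, with LC25, HC18 and HC25 in orange, blue and black and each point 1 library (n = 12 per condition); grey lines part the V1, V0 and accessory genes on the left and, on the right, the Rab genes of the early secretory path, regulated secretion, endosome and recycling, late endosome and lysosome, those with no route assigned, and the regulators. Vha68-2 and Vha100-2 lie low in 35 libraries and reach 826 and 418 TPM in the HC25 library of ZT06.

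Vha68-2 and Vha100-2 owe their means to 1 library. Vha68-2 had 826 TPM in the HC25 library of ZT06 and at most 12.96 TPM elsewhere. Its median was 0.584 TPM in LC25, 0.710 TPM in HC18 and 1.52 TPM in HC25. Vha100-2 had 418 TPM in that library and at most 5.83 TPM elsewhere; it was listed at 0 in 2 HC18 libraries. Without that library their means were 1.66 and 0.608 TPM, so that Vha100-2 would not have met the 1 TPM level. As shares, Vha68-2 made up 89.5% of the A subunit's TPM in that library and at most 6.75% elsewhere (HC18 ZT24), and Vha100-2 made up 85.9% of the a subunit and at most 4.48% elsewhere (HC18 ZT24). VhaM9.7-b, another e subunit, made up 63.0% of its subunit there and 15.7 to 28.3% elsewhere. In the same library 9 of 20 V-ATPase members had their highest value of the 36 and 5 their lowest, Vha100-1, Vha68-1 and VhaM9.7-a among them. Vha100-2 is counted in the 9, but it met the 1 TPM level only through this library. Its highest value there was therefore fixed by the choice of members. Of 25 Rab GTPases 17 had their lowest value there and 0 their highest. Of all genes tested 3.90% had their highest value there and 31.9% their lowest. The marker values of this library are those given above.

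**Figure D2:**
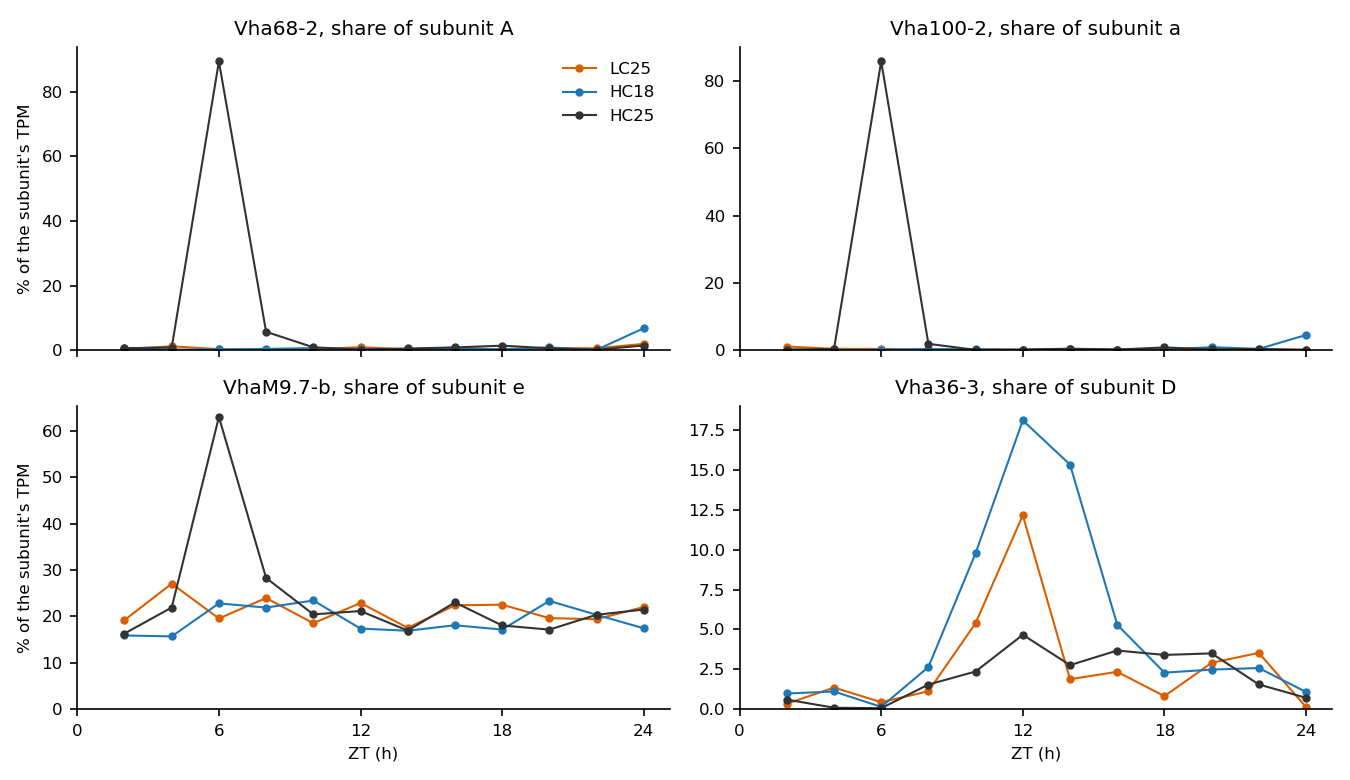
Share of each subunit's TPM held by a second gene copy at each ZT, as % of the summed copies that are members, with 1 library per point and LC25, HC18 and HC25 in orange, blue and black. Vha68-2 reaches 89.5% and Vha100-2 85.9% in the HC25 library of ZT06, and Vha36-3 rises around ZT12 to 12.2% in LC25, 18.1% in HC18 and 4.66% in HC25.

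Summed over the family, V-ATPase transcripts came to 6320.3 ± 777 TPM in LC25, 6918 ± 809 TPM in HC18 and 6975 ± 1238 TPM in HC25 libraries (SD, n = 12 each). The highest sum, 10482 TPM, was that of the HC25 library of ZT06, and without it HC25 averaged 6657 ± 587 TPM (n = 11). The highest LC25 sum, 7580 TPM, was that of ZT18, the library with the high photoreceptor sum. V1 genes summed to 2888 ± 385 TPM in LC25, 3306 ± 495 TPM in HC18 and 3313 ± 844 TPM in HC25. V0 genes summed to 2792 ± 365 TPM in LC25, 2781 ± 231 TPM in HC18 and 2979 ± 377 TPM in HC25. The differences between conditions lay within these spreads, and the sums were not tested.

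Among the Rab genes, Rab2, Rab3 and Rab5 had the highest means. Rab2, which acts at the Golgi, led with a range of 333.5 to 629.5 TPM in LC25, 400.1 to 742 TPM in HC18 and 264 to 604 TPM in HC25, and medians of 451 TPM in LC25, 537.5 TPM in HC18 and 450.4 TPM in HC25. Rab3, which ties synaptic vesicles to release sites, ranged from 164 to 412 TPM with a median of 265 TPM in LC25, from 224 to 541 TPM with a median of 328 TPM in HC18, and from 181 to 424 TPM with a median of 279 TPM in HC25. Rab5 of the early endosome (246 TPM), Rab1 of ER to Golgi transport (178.5 TPM), Rab11 of the recycling endosome (166 TPM), Rab14 (161 TPM) and Rab4 (155 TPM) had the next highest means over the 36 libraries. Rab7, the GTPase of late endosomes, averaged 132.5 TPM, and RabX4, for which no role is given here, 142 TPM. The lowest GTPases were Rab27 of secretory vesicles (11.8 TPM) and Rab9 of late endosome to Golgi return (7.56 TPM). The 2 subunits of the Rab3 GTPase-activating complex were also low, with 8.35 TPM for Rab3GAP1 and 5.54 TPM for Rab3-GAP, the lowest mean of the Rab members. The 25 GTPases together came to 2484 ± 270 TPM in LC25, 2723 ± 314 TPM in HC18 and 2440 ± 321 TPM in HC25 (SD, n = 12 each). The lowest sum, 1509 TPM, was again that of HC25 ZT06, and without it HC25 averaged 2525 ± 137 TPM (n = 11).

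The next question was which members follow the time of day. A 24 h cosine common to the 3 conditions was fitted to log2(TPM + 1) of all 8649 genes with limma; a member is called when its Benjamini-Hochberg adjusted p over all of them is under 0.05. Amplitudes run from mean to peak on that log2 scale, which understates the swings of low genes. Over all genes 23.9% were called. Of the V-ATPase members 2 of 20 were called and of the Rab members 7 of 28, and the median amplitude was 0.13 in the V-ATPase members, 0.19 in the Rab members and 0.20 in all genes. Fewer LNv cells in a library and less RNA per cell cannot be told apart in such data, and nothing in the labels says that neighbouring libraries come from separate crosses or days, so p-values measure the spread between these libraries only.

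VhaAC45 was called for a daily rhythm in all 3 conditions in the main fit. Its highest library was at ZT12 in LC25, ZT10 in HC18 and ZT14 in HC25. Its lowest was at ZT22 in LC25, ZT24 in HC18 and ZT20 in HC25. It ranged from 332 to 692 TPM with a median of 427 TPM in LC25, from 392 to 794 TPM with a median of 619 TPM in HC18, and from 348 to 653 TPM with a median of 493 TPM in HC25. Averaged over the 3 conditions, it stood at 661 ± 36.2 TPM at ZT12 and 384 ± 26.2 TPM at ZT02 (SD, n = 3). The fitted amplitude was 0.36 ± 0.05 (SE) with a peak at ZT11.4 and 1.64-fold between peak and trough (adjusted p = 1.29e-06). It was also called within each condition, where 6.14% of all genes were called in LC25, 5.52% in HC18 and 8.45% in HC25: the amplitude was 0.34 ± 0.09 in LC25 (adjusted p = 0.0325), 0.37 ± 0.09 in HC18 (0.02) and 0.38 ± 0.09 in HC25 (0.0103). Of 11 refits under other settings, 7 called it in LC25, 9 in HC18 and 10 in HC25. With each condition fitted alone it was called in HC18 only.

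Vha36-3, a second copy of the rotor subunit D, had the largest swing of the 48 members. Its lowest, median and highest values were 0.388, 4.84 and 54.4 TPM in LC25, 0.558, 10.1 and 67.4 TPM in HC18, and 0.253, 8.12 and 17.9 TPM in HC25. The highest library was that of ZT12 in LC25 and HC25 and that of ZT10 in HC18. In HC18 the values were 67.4 TPM at ZT10, 62.1 TPM at ZT12 and 64.1 TPM at ZT14, while in LC25 only ZT12 exceeded 20 TPM and in HC25 no library did. The shared amplitude was 1.56 ± 0.22 with a peak at ZT14.3 and 8.70-fold between peak and trough (adjusted p = 3.71e-06). Within conditions it was called in HC18 (amplitude 1.93 ± 0.38, adjusted p = 0.00301) and in HC25 (1.59 ± 0.38, 0.0177; 0.0769 without the ZT06 library), and its adjusted p was 0.0807 in LC25 (1.32 ± 0.38). Even at its highest it held 18.1% of the D subunit's transcript, the rest being Vha36-1, which had a shared amplitude of 0.06 ± 0.07 (adjusted p = 0.821).

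The remaining 18 V-ATPase members were not called. Next in order of p were Vha68-1 (amplitude 0.18 ± 0.07, adjusted p = 0.113) and VhaSFD (0.15 ± 0.06, 0.114). Vha68-1 ranged from 119 to 232 TPM with a median of 177 TPM in LC25, from 145 to 278 TPM with a median of 210 TPM in HC18, and from 97.4 to 227 TPM with a median of 205 TPM in HC25; the HC25 low was the ZT06 library, and without that library Vha68-1 was called as well. VhaSFD had medians of 232 TPM in LC25, 253 TPM in HC18 and 234 TPM in HC25. Apart from the 2 called members and from Vha68-2 and Vha100-2, whose fits rest on the HC25 library of ZT06, fitted amplitudes were at most 0.18.

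**Figure D3:**
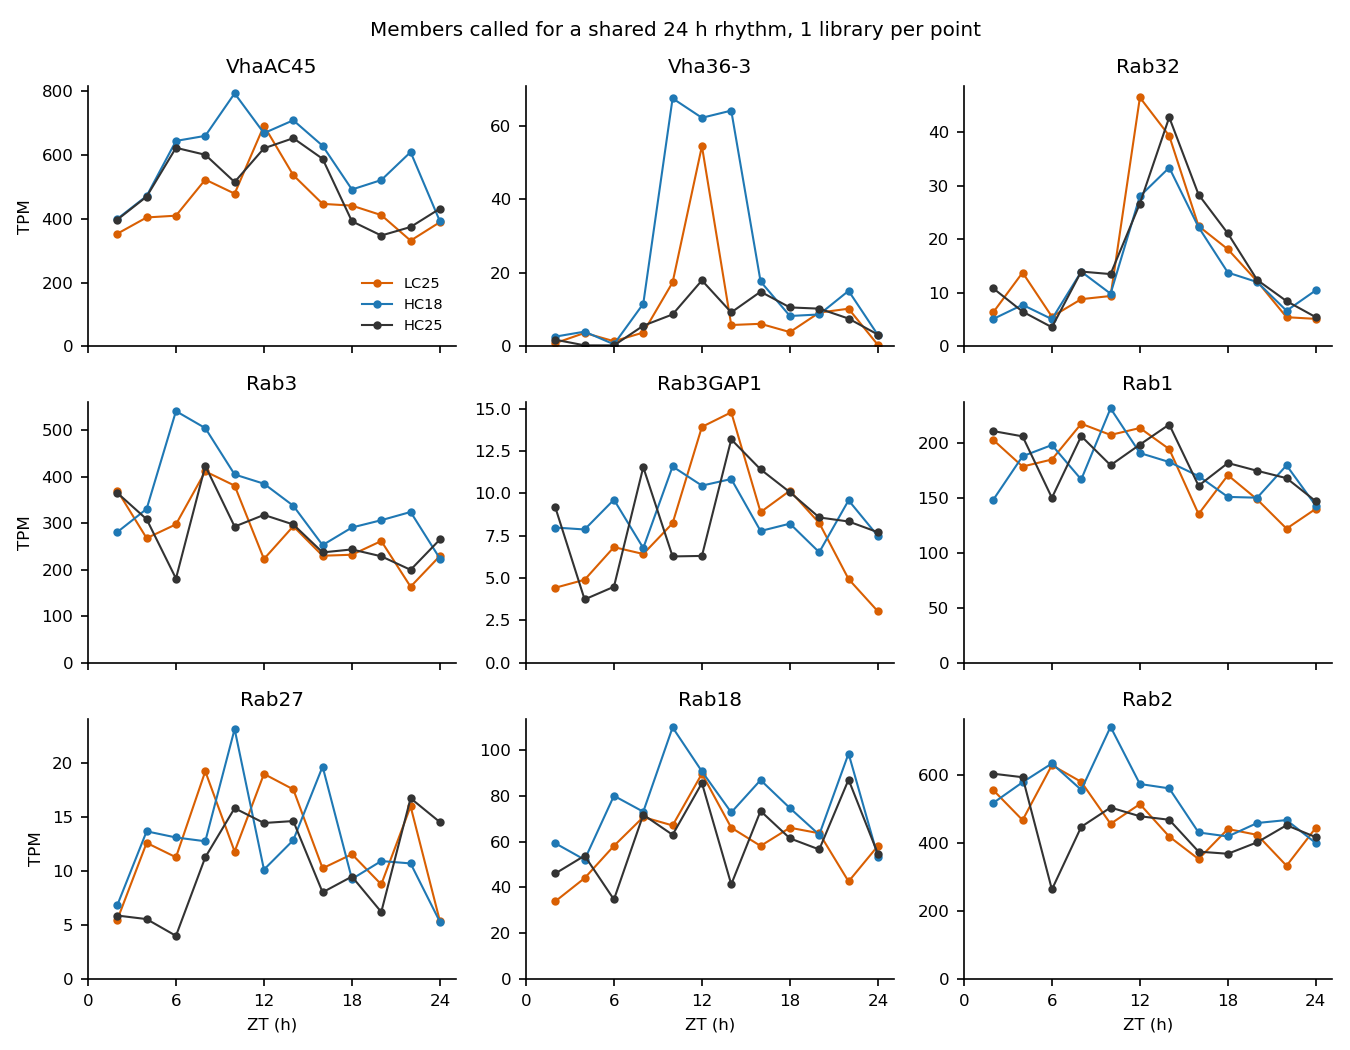
TPM at each ZT of the 9 members called for a shared 24 h rhythm, with 1 library per point and LC25, HC18 and HC25 in orange, blue and black; vertical axes begin at 0 and differ between panels. Rab32 peaks at ZT12 or ZT14 in every condition, and the HC25 library of ZT06 is low for Rab3 and Rab2.

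Rab32 had the strongest daily rhythm of the Rab members. It is the fly lightoid gene, known for traffic to lysosome-related organelles such as the pigment granules of the eye. Its lowest, median and highest values were 5.13, 10.8 and 46.5 TPM in LC25, 5.08, 11.2 and 33.4 TPM in HC18, and 3.57, 12.9 and 42.8 TPM in HC25. The highest library was that of ZT12 in LC25 and that of ZT14 in HC18 and HC25. Over the 3 conditions it averaged 38.5 ± 4.75 TPM at ZT14 and 4.73 ± 1.03 TPM at ZT06 (SD, n = 3). The ZT06 mean includes the HC25 library that stood apart, at 3.57 TPM. The shared amplitude was 1.08 ± 0.12 with a peak at ZT14.3 and 4.46-fold between peak and trough (adjusted p = 6.92e-09). It was the only Rab member called in every condition, with amplitudes of 1.12 ± 0.21 in LC25 (adjusted p = 0.0013), 0.96 ± 0.21 in HC18 (0.00784) and 1.16 ± 0.21 in HC25 (0.000811).

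Around release of vesicles, Rab3 and Rab27, the GTPases of synaptic and other secretory vesicles, and Rab3GAP1, a subunit of the complex known in mammals for switching Rab3 off and Rab18 on, were called. Rab3 averaged 447 ± 50.7 TPM at ZT08 and 229 ± 84.3 TPM at ZT22 over the 3 conditions (SD, n = 3), with an amplitude of 0.32 ± 0.07 and a peak at ZT8.18 (adjusted p = 0.00188). Rab27 had 16.9 ± 5.74 TPM at ZT10 and 6.07 ± 0.695 TPM at ZT02, with an amplitude of 0.41 ± 0.11 and a peak at ZT12.5 (adjusted p = 0.0204). Rab3GAP1 ranged from 3.03 to 14.8 TPM with a median of 7.53 TPM in LC25, from 6.53 to 11.6 TPM with a median of 8.10 TPM in HC18, and from 3.74 to 13.2 TPM with a median of 8.46 TPM in HC25. Its shared amplitude was 0.39 ± 0.09 with a peak at ZT14.3 (adjusted p = 0.00458). Of the conditions it was called in LC25 (0.74 ± 0.14, adjusted p = 0.00162), where 2 of the 12 libraries, ZT12 and ZT14, exceeded 13 TPM. Its partner in the complex, Rab3-GAP, had an amplitude of 0.22 ± 0.08 (adjusted p = 0.123), and the Rab3 exchange factor Rab3-GEF 0.21 ± 0.10 (0.287).

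In the early secretory path, Rab1, Rab2 and Rab18 were called. Rab1 ranged from 122 to 218 TPM with a median of 182 TPM in LC25, from 143 to 232 TPM with a median of 175 TPM in HC18, and from 147 to 217 TPM with a median of 181 TPM in HC25. Its shared amplitude was 0.20 ± 0.05 with a peak at ZT9.36 (adjusted p = 0.00778). Rab2 had an amplitude of 0.21 ± 0.06 with a peak at ZT7.17 (adjusted p = 0.0259). Rab18, found on the ER and on lipid droplets, had an amplitude of 0.27 ± 0.08 with a peak at ZT13.6 (adjusted p = 0.0234). It averaged 88.7 ± 2.70 TPM at ZT12 and 46.5 ± 12.7 TPM at ZT02 over the 3 conditions (SD, n = 3). Golgi Rab6 and Rab30 were not called for a shared rhythm.

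The endosomal and recycling GTPases Rab4, Rab5, Rab11, Rab14, Rab21 and Rab35 were not called for a shared rhythm, with amplitudes between 0.08 and 0.20. Rab7 of late endosomes had an amplitude of 0.21 ± 0.07 (adjusted p = 0.0676). With time point as a factor in place of the cosine, VhaAC45, Vha36-3 and Rab32 were called and the other 6 were not. In that fit 942 genes were called in all.

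In the cosine fit the peaks of Rab2, Rab3 and Rab1 lay between ZT7.17 and ZT9.36. Those of Rab27, Rab18, Rab3GAP1 and Rab32 lay between ZT12.5 and ZT14.3. The authors' phases, given below, did not part the called Rab members in this way. Over all 28 Rab members, called or not, 15 fitted peaks lay from ZT12 to ZT18 and 7 from ZT06 to ZT12. Of the 20 V-ATPase members 9 peaked in each of these windows. Of all 8649 genes 47.0% peaked from ZT12 to ZT18 and 24.5% from ZT06 to ZT12. Median pairwise Pearson correlations over the 36 libraries were 0.30 among the V-ATPase members, 0.30 among the Rab members and 0.11 among all genes, as a description, since all genes share the libraries and their total.

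**Figure D4:**
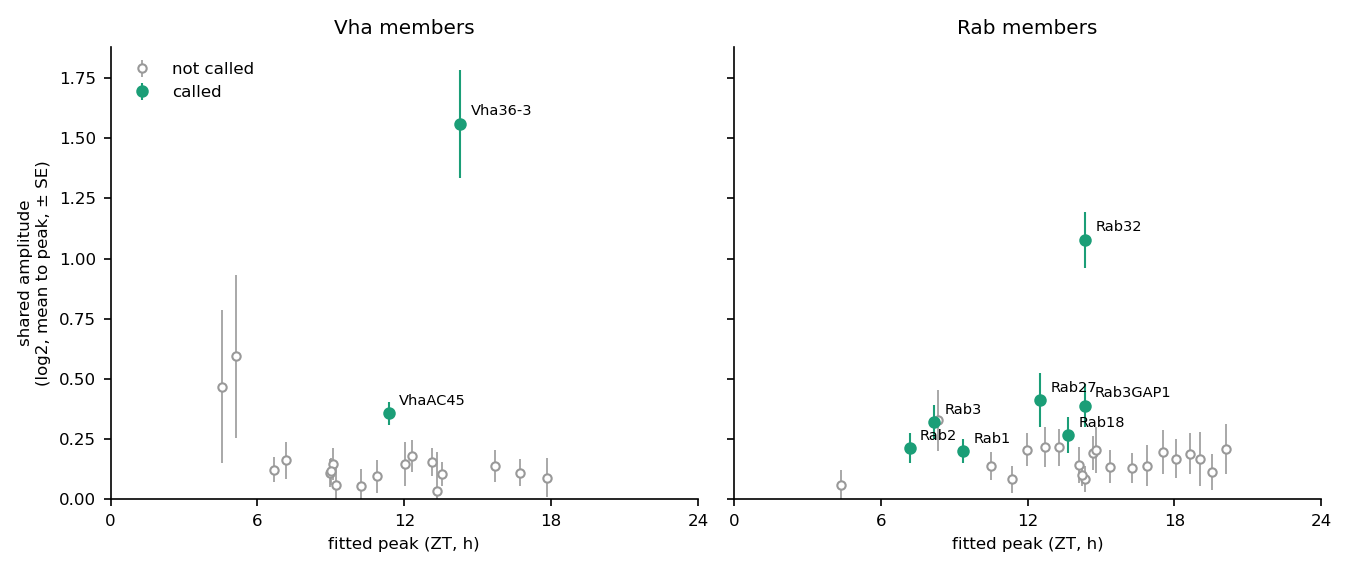
Fitted peak time (ZT, h) against shared amplitude (log2, mean to peak, with SE) for the 20 V-ATPase and the 28 Rab members; filled green points passed adjusted p under 0.05. Vha36-3 at 1.56 and Rab32 at 1.08 stand above the other called members, which lie at 0.41 or lower.

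Whether the rhythms themselves differed between conditions was tested as the difference of the cosine and sine terms. No member was called for LC25 against HC25 or for HC18 against HC25, and neither was any of the 8649 genes (0% in each comparison). At an unadjusted p under 0.05, limma gave 3 Rab members for LC25 against HC25 and 2 for HC18 against HC25, and no V-ATPase member, beside 4.1% of all genes for LC25 and 3.65% for HC18. Those Rab members were Rab21, Rab30 and Rab3GAP1 in LC25, and Rab21 and Rab30 in HC18. All 3 had adjusted p of 0.934 or more. Rab21 and Rab30 were, with Rab32, the Rab members called for a rhythm within HC25: Rab21 with an amplitude of 0.64 ± 0.13 and a peak at ZT18.8 (adjusted p = 0.00382; 0.0415 without the ZT06 library, and 0.411 with an amplitude of 0.32 without the 3 libraries of lowest correlation) and Rab30 with 0.56 ± 0.13 and a peak at ZT19.1 (0.0163; 0.073 without it). In the other conditions Rab21 had amplitudes of 0.06 ± 0.13 in LC25 and 0.15 ± 0.13 in HC18.

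Food at 25 °C was compared as LC25 minus HC25 with time point as a factor, which sets 12 libraries against the 12 of the same ZT. No V-ATPase or Rab member was called, and 0% of all genes were called higher and 0% lower. At an unadjusted p under 0.05, limma gave 453 of the 8649 genes, 1 V-ATPase member (Vha68-2, lower) and no Rab member. Of the V-ATPase members 17 of 20 had differences below 0, with a median of -0.14, against -0.03 over all genes, of which 43.1% lay above 0. The 20 include Vha100-2, which met the 1 TPM level only through the HC25 library of ZT06. Without the HC25 library of ZT06 the V-ATPase median was -0.10, with 2 of 20 above 0, against a median of -0.08 over all genes. With libraries rescaled after removal of Pdf, fmt, trol and mitochondrial transcripts, 12 of 20 lay below 0. The V-ATPase median was then -0.05, against 0.06 over all genes. The Rab median was 0.04 in the main fit, with 18 of 28 above 0, and -0.05 without the HC25 library of ZT06, with 9 above 0. With the same rescaling it was 0.13, with 25 of 28 above 0. The smallest unadjusted p of the V-ATPase members were those of Vha68-2 (-1.22 ± 0.58, adjusted p = 0.947, which rests on the HC25 library of ZT06) and Vha13 (-0.17 ± 0.09, 0.973; 9 of 12 pairs lower). Of the Rab members they were those of Rab7 (-0.21 ± 0.12, 0.973; 7 of 12 pairs lower) and Rab8, which carries cargo from the Golgi to the plasma membrane (-0.15 ± 0.10, 0.973). Rab7 ranged from 66.9 to 171 TPM in LC25 and from 114.5 to 171 TPM in HC25. Rab8 ranged from 32.3 to 59.9 TPM in LC25 and from 38.3 to 63.8 TPM in HC25, so the groups overlapped for both.

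Temperature was compared on the richer food as HC18 minus HC25, which shares its HC25 libraries with the food comparison. Here 5.92% of all genes were called higher in HC18 and 2.3% lower. Without the HC25 library of ZT06 these shares were 4.54% higher and 4.29% lower, and without the 3 libraries of lowest correlation 5.58% higher and 5.69% lower. Of the V-ATPase members 1 was called higher and 0 lower, and of the Rab members 2 higher and 0 lower. At an unadjusted p under 0.05, limma gave 4 V-ATPase members higher and 2 lower, and 10 Rab members higher and 0 lower, beside 15.6% of all genes higher and 8.9% lower. The median difference was 0.03 over the V-ATPase members, with 12 of 20 above 0, and 0.13 over the Rab members, with 20 of 28 above 0, against 0.04 over all genes, of which 55.9% lay above 0. Other scalings put the V-ATPase median between -0.05 and -0.01 and the Rab median between 0.06 and 0.09. The median over all genes then lay between -0.02 and 0.01, also below that of the main fit.

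Rab4, the GTPase of fast recycling from early endosomes, was higher in HC18 in 12 of 12 time-matched pairs. Its values ran from 145 to 207 TPM with a median of 180.1 TPM in HC18, and from 80.6 to 166 TPM with a median of 145 TPM in HC25. The difference was 0.33 ± 0.10 on the log2 scale (adjusted p = 0.0353), and 0.25 without the HC25 library of ZT06 (0.0425). Rab21, an early endosome GTPase, had 34.6 to 61.4 TPM with a median of 45.3 TPM in HC18, and 12.4 to 63.9 TPM with a median of 36.1 TPM in HC25, so the ranges overlapped. It was higher in HC18 in 10 of 12 pairs, by 0.49 ± 0.15 (adjusted p = 0.0426), and by 0.38 without the HC25 library of ZT06 (0.0739). Vha36-3 was higher in HC18 in 9 of 12 pairs, by 0.95 ± 0.28 (adjusted p = 0.035), with the values given above. Without the 3 libraries of lowest correlation (HC25 ZT06, HC25 ZT08 and HC18 ZT24) the adjusted p was 0.0752 for Rab4, 0.111 for Rab21 and 0.0547 for Vha36-3, with differences of 0.24 for Rab4, 0.28 for Rab21 and 0.98 for Vha36-3. With the 4 low-fmt libraries of HC18 left out, none of the 3 was called: the differences were then 0.23 for Rab4 (adjusted p = 0.321), 0.39 for Rab21 (0.272) and 0.92 for Vha36-3 (0.164), in a fit that called 71 genes higher in all. Rab4 overlaps exons of Dcr-2 on the other strand, and whether reads were assigned by strand is not stated in these sources.

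Members next in order of p for temperature did not pass the test. RabX4 had 131 to 228 TPM with a median of 153.5 TPM in HC18 and 40.3 to 175 TPM with a median of 127 TPM in HC25 (0.41 ± 0.14, adjusted p = 0.0712); it shares exonic bases with Kaz on the same strand. Rab18 had medians of 73.9 TPM in HC18 and 59.0 TPM in HC25 (0.33 ± 0.12, 0.0842). Vha44, the C subunit that clamps V1 to V0, had 200 to 413 TPM with a median of 254 TPM in HC18 and 169 to 452 TPM with a median of 200.8 TPM in HC25 (0.33 ± 0.11, 0.0651; called without the HC25 library of ZT06). It overlaps Hmgs on the other strand. VhaAC45RP, related to VhaAC45, had medians of 243 TPM in HC18 and 194 TPM in HC25 (0.46 ± 0.17, 0.0829). VhaM9.7-b had medians of 220.5 TPM in HC18 and 277.5 TPM in HC25 (-0.29 ± 0.11, 0.115). All 5 genes overlapped between HC18 and HC25. RabX4 and VhaAC45RP were called with median-ratio or quantile scaling. Without the 3 libraries of lowest correlation, Vha44 and VhaAC45 were called.

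**Figure D5:**
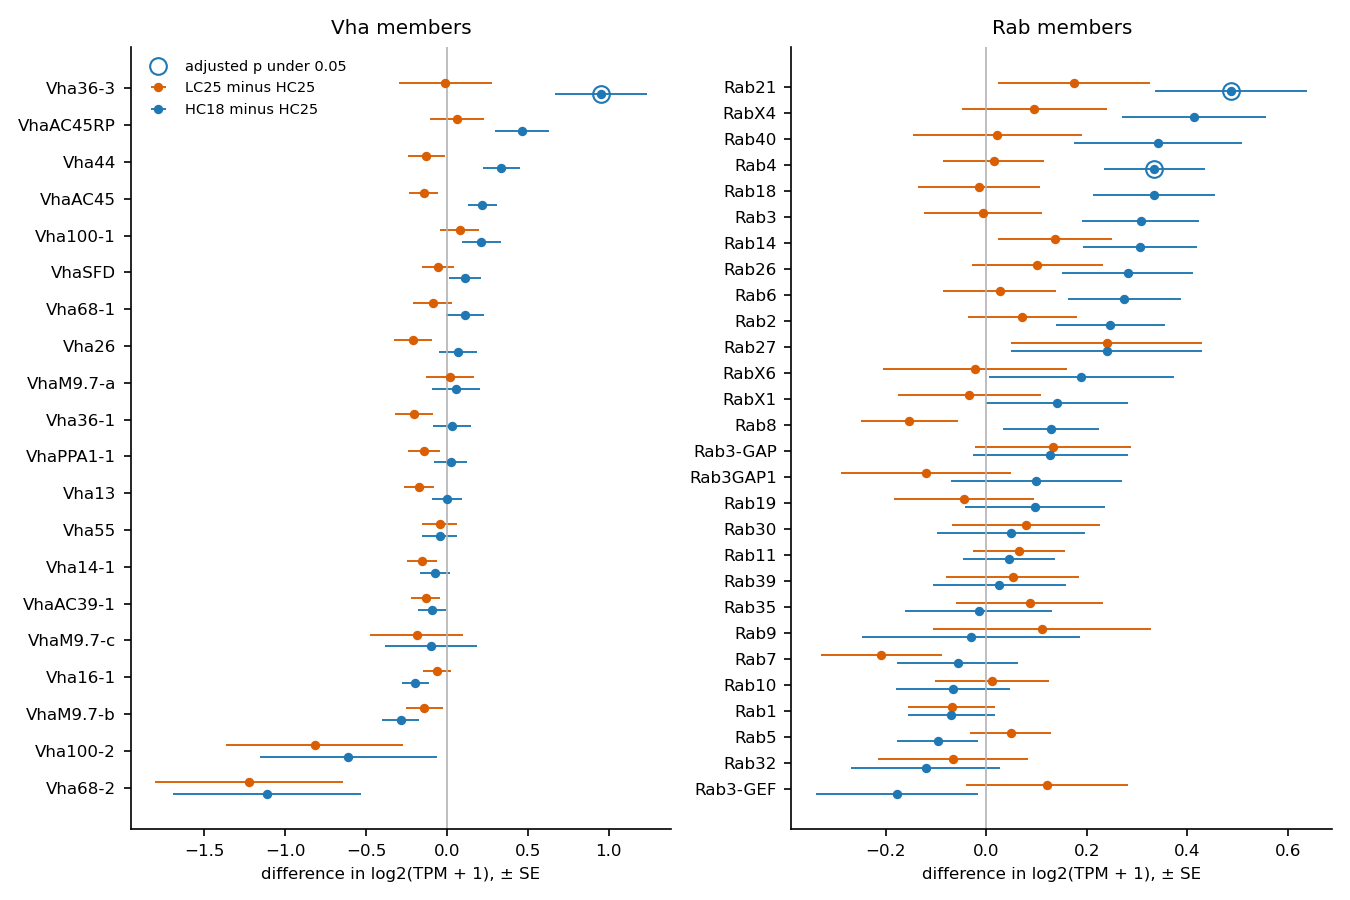
Differences in log2(TPM + 1) with SE for LC25 minus HC25 (orange) and HC18 minus HC25 (blue), each over 12 time-matched pairs, for the 20 V-ATPase and the 28 Rab members; horizontal scales differ, and open circles mark adjusted p under 0.05. Circles stand at Vha36-3 (0.95), Rab21 (0.49) and Rab4 (0.33), and most orange points of the V-ATPase members lie left of 0.

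Transcript by transcript, with 13.4% of 14167 transcripts called for a shared rhythm, 2 of 42 V-ATPase and 7 of 57 Rab transcripts were called. VhaAC45-RB, with 81.0% of its gene's TPM, and Vha36-3-RB, with 90.7%, were those of the pump. Rab32-RH held 66.3% of its gene and had an amplitude of 1.33 ± 0.18 (adjusted p over transcripts 4.82e-06), and Rab32-RC held 12.1% with 1.17 ± 0.17. Rab32-RD, with 9.61% of the gene, had 0.19 ± 0.24 and was not called. Rab27-RC held 85.5% of its gene with an amplitude of 0.64 ± 0.14 (adjusted p = 0.00434). The other called transcripts were the only ones of Rab1, Rab3, Rab18 and Rab3GAP1 in the table. For temperature, some transcripts were called where the gene was not: Vha13-RB was lower in HC18 by -0.68 ± 0.20 (adjusted p = 0.0467), while Vha44-RF was higher by 0.68 ± 0.17 (0.022) and Rab14-RA by 1.11 ± 0.24 (0.00788). Division of reads among transcripts of a gene is an estimate, so these values are less certain than the gene sums.

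Genes that work with the pump and with Rab proteins were counted from lists. Over all genes 23.9% were called for a shared rhythm, 5.92% as higher in HC18 and 2.3% as lower. No list was tested against these shares. Of 4 V-ATPase assembly and accessory genes, mtd was called for a shared rhythm (1.54-fold between peak and trough, adjusted p = 0.00652) and none for temperature; ATP6AP2, an accessory subunit, and the Rabconnectins Rbcn-3A and Rbcn-3B were not called. Of 13 genes of MITF and lysosomal nutrient sensing, none was called for rhythm or level. Of 19 genes for lysosomal proteins 5 were called for a shared rhythm, among them the protease gene CtsL1 (1.42-fold, adjusted p = 0.00565) and the calcium channel gene Trpml (1.51-fold, 0.00935). In HC18 3 of them rose and 1 fell against HC25: the proteases CtsF (0.73, adjusted p = 0.000244) and CtsB (0.44, 0.0104) and the hexosaminidase Hexo1 (0.72, 0.0113) were higher, and Lamp1, named here after its value was seen, was lower (-0.50, 0.0117).

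Of the regulators of Rab proteins, 3 of 20 exchange factors and 3 of 11 GTPase-activating proteins were called for a shared rhythm. The shares over all genes were 23.9% for a shared rhythm and 5.92% for a higher level in HC18. The largest swing among these regulators was that of sky, the Skywalker gene, whose product acts on Rab35 at synapses, with 2.27-fold between a peak at ZT6.21 and the trough (adjusted p = 2.34e-06). Exchange factors higher in HC18 were CG1116 (0.58, adjusted p = 0.0115) and Ccz1, which activates Rab7 (0.41, 0.0437). None of the 4 genes of Rab prenylation and recycling was called in either test. Of 55 Rab effectors and tethers 12 were called for a shared rhythm, among them Rim, a Rab3 effector at release sites (1.55-fold, adjusted p = 0.00332), and 6 were higher in HC18, among them the Golgi tether GCC88 (0.91, 0.000655), hook (0.57, 0.00293) and the Rab5 effector Rbsn-5 (0.73, 0.00818).

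Around the vesicles themselves, 7 of 36 SNARE and fusion genes, 2 of 12 Arf, Arl and Sar GTPase genes and 5 of 27 coat and adaptor genes were called for a shared rhythm. Beside them stand 23.9% of all genes for a shared rhythm and 5.92% for a higher level in HC18. Syb, a synaptobrevin, varied 3.31-fold with a peak at ZT7.44 (adjusted p = 2.53e-06), Rala 1.67-fold (1.05e-05), and alphaCOP, of the coat that returns cargo from the Golgi to the ER, 1.64-fold with a peak at ZT6.99 (1.37e-04). The coat and adaptor list had 6 genes higher in HC18 and 0 lower, among them AP-2mu of the endocytic adaptor (0.49, adjusted p = 0.0104) and or, of the adaptor for lysosome-related organelles (0.47, 0.00962). Of 16 dense-core vesicle genes 5 were called for a shared rhythm and 6 were higher in HC18, with a median temperature difference of 0.28. Sytbeta, a synaptotagmin, peaked at ZT8.53 with 2.85-fold (adjusted p = 5.09e-10), and amon, the prohormone convertase, at ZT6.38 with 2.80-fold (8.68e-08). In HC18 svr, a carboxypeptidase of peptide processing, was higher by 0.58 (adjusted p = 0.00212) and Pal2, an amidation enzyme, by 0.49 (0.00468). None of 5 proton-driven vesicle transporter genes was called for rhythm or level. For LC25 minus HC25 no gene of these lists was called. Without the 4 low-fmt libraries of HC18, CtsF, GCC88 and svr were the only genes of these lists called for temperature, all higher in HC18, and 2 of the 27 coat and adaptor genes were called for a shared rhythm. Without the HC25 library of ZT06, 3 coat and adaptor genes were higher in HC18, 8 were called for a shared rhythm, and 5 dense-core vesicle genes were higher and 2 lower in HC18; 2 of the 5 transporter genes were then called for a shared rhythm. In that fit sky, Arl4, Rala and 1 effector or tether were lower in HC18 as well. Without the 3 libraries of lowest correlation, 4 Arf, Arl and Sar GTPase genes and 3 SNARE and fusion genes were called lower in HC18, and 4 SNARE and fusion genes and 4 Arf, Arl and Sar GTPase genes were called for a shared rhythm. Of all 8649 genes, 2100 were called for a shared rhythm, 71 higher and 67 lower in HC18 without the low-fmt libraries. These counts were 2159, 393 and 371 without HC25 ZT06, and 1947, 483 and 492 without the 3 libraries.

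The authors' deposited tables hold BooteJTK, a rank-based test for cycling, run on the 25 °C conditions and on all conditions together. In each, 18 of the 20 V-ATPase members, all but Vha68-2 and Vha100-2, and all 28 Rab members were matched. In the authors' deposited table for 25 °C, 10.8% of the listed genes had an adjusted p (GammaBH) under 0.05. VhaAC45, Vha36-3 and Vha44 passed there, with Rab32, Rab10, Rab2 and Rab3GAP1. In the authors' deposited table for all conditions, 23.1% of the listed genes passed, with 3 V-ATPase and 9 Rab members. The 9 members called by the cosine fit all passed in that table, from Rab32 (GammaBH 3.97e-05) and Vha36-3 (9.41e-05) to Rab3 (0.0476). Vha68-1, Rab39 and Rab7 passed there and not in the cosine fit of the same 36 libraries. The mean phases in that table were 8 h for Rab2, 9.16 h for Rab3, 9.66 h for Rab27 and 10.4 h for Rab1 and Rab18. They were 12.4 h for Rab32, 13.6 h for Rab3GAP1, 10.4 h for Vha36-3 and 12.8 h for VhaAC45. By these phases Rab27 came before Rab1, so the earlier and later cosine peaks of the Rab members were not parted.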

How the data were processed

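RNA of sorted LNv neurons went through T7-based linear amplification before library preparation, per the labels' protocols. The authors deposited TPM per transcript; kallisto is named in the submitters' processing notes, and neither its version nor a genome build is given in the sources used here. The authors also deposited BooteJTK p-values, mean phases and a score, per the file headers. Only the p-values and the mean phases of the called members were used here. TPM were summed to genes by transcript IDs of Ensembl release 115 (30246 of 30485 transcripts matched), which gave names only. Rhythms were 24 h cosines and levels were fitted by condition plus time point, on log2(TPM + 1) of 8649 genes with a mean of at least 1 TPM, with limma 3.58.1 (R 4.3.3, eBayes with a trend), Benjamini-Hochberg over all genes, called under 0.05; the steps were tested on simulated data. Of the members 10 overlap exons of another gene. The members and lists were chosen with earlier results of these data known. Values in full are given for the members of smallest p per test (4 for shared rhythm, 4 for HC18 minus HC25, 2 for LC25 minus HC25) and the 2 of highest mean in each family, and at most 3 genes per test of each list. Alternatives were other pseudocounts, filters, scalings, test settings and sets of libraries.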

Additional observations from a re-analysis of the deposited data

How the results depend on the processing

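Of 230 recounts of called members under the alternatives tried, 195 were within 1.5 times the main count. These include main counts of 0 that stayed at 0. Of 256 refits of single members 218 stayed on their side of the threshold and 38 became weaker. Only results called in the main fit were refitted in this way, so none could become stronger. Results called only under other settings, such as those of Vha44, Vha68-1 and RabX4, are not among them. Most of these refits concern amplitudes, which cannot be negative, so a change of sign was possible for the level differences only. None of those changed sign. For the shared rhythm, VhaAC45, Vha36-3, Rab32, Rab3, Rab27 and Rab3GAP1 were called in all 11 cosine refits, Rab1 in 10, Rab18 in 9 and Rab2 in 8. With time point as a factor 1 Rab member was called. V-ATPase members called for a rhythm in LC25 numbered 0 with median-ratio scaling, with scaling without Pdf, fmt, trol and mitochondrial transcripts, without the eBayes trend and with each condition fitted alone, and 2 without the low-fmt libraries of HC18. They numbered 1 in HC18 with median-ratio scaling or without the 3 libraries least like the others, and 1 in HC25 without the ZT06 library, without those 3 libraries or with each condition fitted alone. Rab members numbered 4 in LC25 without HC25 ZT06 or the 3 libraries, 3 in HC18 with median-ratio scaling or without HC25 ZT06, and 1 in HC25 without the 3 libraries or fitted alone. V-ATPase members higher in HC18 numbered 0 with no filter, with scaling without the abundant transcripts, without the low-fmt libraries, with no time term or with a cosine for the time factor, and 2 with median-ratio or quantile scaling or without HC25 ZT06 or the 3 libraries. These 2 were not always the same: with either scaling they were Vha36-3 and VhaAC45RP. Without HC25 ZT06 they were Vha36-3 and Vha44, and without the 3 libraries Vha44 and VhaAC45. Rab members higher in HC18 numbered 0 with scaling without the abundant transcripts, without the 3 libraries, without the low-fmt libraries or without the trend, 1 with no filter, without HC25 ZT06 or with no time term, and 4 with quantile scaling. RabX4 was called with median-ratio or quantile scaling, and Rab14 with quantile scaling. Of all genes 5.92% were higher in HC18 in the main fit and 0.82% without the low-fmt libraries. The share was 4.54% without HC25 ZT06 and 5.58% without the 3 libraries. For the other refits shares over all genes are not given here, so their counts are not read as a result about the members. V-ATPase transcripts called numbered 4 without HC25 ZT06. The causes were not tested. The level fits pair the conditions by time point, and the fit with no time term is the unpaired one; the labels give no replicate numbers to pair by. TPM hold no depth, so no limit of detection is given.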
